A study of Mus musculus with 4 samples.

Results

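Levels of 9 activity-regulated genes, Egr1, Egr2, Egr3, Nr4a1, Nr4a2, Nr4a3, Arc, Npas4 and Srf, were followed across 4 RNA sequencing libraries of HT22 cells, an immortalised line derived from mouse hippocampal neurons. They were taken by their gene symbols through the Ensembl identifiers of the files, and all 9 were found among the 20089 genes with reads. The 4 groups were cells with a lentivirus against the long noncoding RNA Neat1 deprived of oxygen and glucose (OGD), cells with the control negative lentivirus under OGD, Neat1 lentivirus cells in DMEM/F12 medium with 10% serum (normal culture), and control lentivirus cells in normal culture. All 4 carry the same strain label, C57BL/6, with 1 library in each group. Differences therefore have no replicate check, no test was possible and no p-value was computed. Per the labels the tissue is hippocampal neurons, and the length of OGD and the construct carried by the lentivirus are not stated there.

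These genes belong to the early transcriptional answer of a cell to growth factors, stress or, in neurons, calcium entry. SRF, a MADS-box factor already present before a stimulus, binds CArG boxes in the promoters of many of them, and CREB binds sites built on the letters TGACG. The Egr genes encode zinc-finger factors and the Nr4a genes encode orphan nuclear receptors, both made within minutes to hours of a stimulus in many cell types. Npas4 encodes a bHLH-PAS factor largely restricted to neurons, and Arc encodes a protein of excitatory synapses whose mRNA follows neuronal activity in the hippocampus.

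Sequences that precede an annotated start of 4 genes are shown because their genes fall into different patterns in the results: Srf, Egr2 and Nr4a1 stood highest in knockdown cells under OGD, and Nr4a2 stood highest in control cells in normal culture. They come from RefSeq on GRCm38.p6, in which 6 of the 9 genes were matched, and run toward the annotated start, 5′ to 3′ on the gene's strand, leaving out bases in exons annotated by GENCODE. Capitals mark a CArG box, or the letters TGACG on either strand, which read CGTCA on the other one.
Srf: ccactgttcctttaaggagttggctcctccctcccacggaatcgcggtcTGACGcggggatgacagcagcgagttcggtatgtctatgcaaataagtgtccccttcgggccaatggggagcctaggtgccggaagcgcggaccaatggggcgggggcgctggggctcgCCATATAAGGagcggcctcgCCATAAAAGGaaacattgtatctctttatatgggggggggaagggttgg
Egr2: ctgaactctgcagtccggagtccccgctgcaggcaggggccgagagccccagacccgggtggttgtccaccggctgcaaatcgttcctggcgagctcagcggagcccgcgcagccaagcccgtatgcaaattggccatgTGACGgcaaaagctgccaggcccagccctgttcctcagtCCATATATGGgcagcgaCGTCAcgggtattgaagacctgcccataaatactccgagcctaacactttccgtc
Nr4a1: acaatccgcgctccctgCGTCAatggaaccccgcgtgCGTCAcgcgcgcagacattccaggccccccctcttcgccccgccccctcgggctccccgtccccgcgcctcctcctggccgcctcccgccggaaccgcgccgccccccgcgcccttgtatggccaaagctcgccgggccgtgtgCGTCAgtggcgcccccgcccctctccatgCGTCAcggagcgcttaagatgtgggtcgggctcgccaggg
Nr4a2: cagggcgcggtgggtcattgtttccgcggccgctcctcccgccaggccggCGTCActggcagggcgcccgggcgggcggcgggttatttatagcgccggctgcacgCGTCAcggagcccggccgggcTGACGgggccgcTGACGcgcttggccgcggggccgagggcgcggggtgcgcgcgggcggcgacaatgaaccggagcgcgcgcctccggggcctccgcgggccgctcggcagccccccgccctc

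The Srf stretch lies at chr17:46556176-46556412 on the minus strand and holds 2 CArG boxes, whose first bases lie 82 and 62 bases before the start, and 1 TGACG. The Egr2 stretch, at chr10:67537619-67537868 on the plus strand, is 1 of 5 overlapping or neighbouring windows of that gene. It holds 1 CArG box, 72 bases before the start, with 2 TGACG. It was picked as the window with the fewest exon bases among those with TGACG, so its TGACG count was partly set by the choice. The gene's most upstream window, from 67535249, holds 0 CArG boxes and 0 TGACG. The window from 67537316 holds 1 CArG box and 0 TGACG. The Nr4a1 stretch (chr15:101266596-101266845, plus strand) and the Nr4a2 stretch (chr2:57124004-57124253, minus strand) each hold 4 TGACG and 0 CArG boxes. The Egr2 and Nr4a1 stretches lie within the span of their gene and precede an internal annotated start, while those of Srf and Nr4a2 lie outside the gene. No marked motif overlaps another. Among 32851 such windows of 250 bases, 1.47% hold a CArG box, 0.0183% hold 2 or more, 17.8% hold TGACG on either strand, and 0.688% hold it 3 times or more. Nr4a1 and Nr4a2 thus share a motif count in these windows while their levels, given next, followed different patterns, and a match of letters shows neither binding nor regulation.

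The libraries held between 17232866 and 20764430 reads assigned to genes. Levels are CPM, the reads put on a common library size and scaled with TMM factors, with exact 95% Poisson intervals that cover counting error only. Ratios are log2 ratios of CPM with 0.5 CPM added, which understates the ratio of low genes, while folds and their 95% exact conditional binomial intervals leave the added value out. The size rule called a gene when its ratio reached 2-fold and its higher library held 20 reads or more, and it is no test. Ribosomal RNA repeat genes, counted together with the protein-coding gene Lars2, took 0.367% of reads in knockdown OGD and 5.09% in control OGD cells. They took 4.64% in knockdown normal and 1.93% in control normal cells. Leaving this set out of library sizes changed no count of members given here. The target Neat1 stood at 42.1 CPM in knockdown cells under OGD and 74.4 CPM in control cells under OGD. It stood at 121 CPM in knockdown cells in normal culture and 193 CPM in control cells in normal culture, so in both cultures it was lower by less than 2-fold.

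The tissue label of hippocampal neurons was checked against 20 neuron markers, because the libraries differ in them. Of the 9 genes, Egr3 and Arc moved as most of these markers did, past 2-fold with knockdown in both cultures. The summed level of the markers was 345 CPM in knockdown OGD, 165 CPM in control OGD, 67.8 CPM in knockdown normal and 2540 CPM in control normal cells. Of the 20 markers, 12 had under 20 reads in knockdown normal and 11 in control OGD, where the neurofilament gene Nefh was at 0. Markers of glial, vascular and immune cells summed to 132, 23.5, 26.9 and 363 CPM in the same order, with 1, 7, 6 and 1 of 20 at 0, among them the oligodendrocyte factor Olig2 in control OGD and knockdown normal cells. Transcripts at least 2-fold lower with knockdown in normal culture and at least 2-fold higher with it under OGD are called brain-type here. This rule sets no condition between control normal and control OGD cells. Where the marker RNA of glial, vascular and immune cells came from in libraries of this line was not tested. In bulk RNA, fewer cells of a type and less RNA per cell cannot be told apart.

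**Figure D1:**
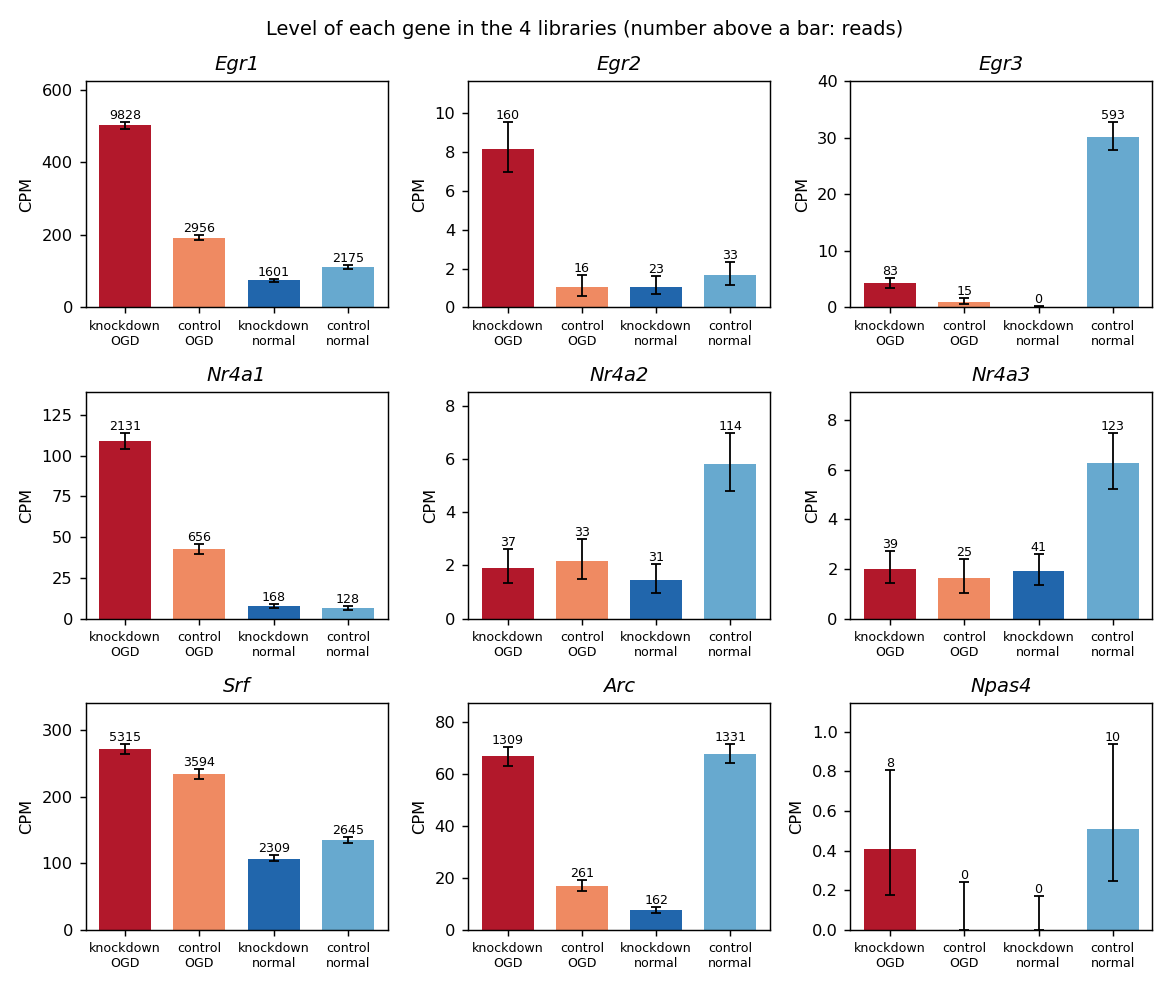
CPM of each of the 9 genes (y axis, linear, a separate scale per gene) in the 4 libraries, with the lentivirus and culture on the x axis, exact 95% Poisson intervals as bars and reads as numbers. Egr1, Egr2, Nr4a1 and Srf are highest in knockdown OGD, Nr4a2 and Nr4a3 are highest in control normal, and Arc is high in those 2 libraries alike.

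Under OGD, knockdown cells held more Egr1, Egr2, Egr3, Nr4a1 and Arc mRNA than control cells. These 5 genes were higher by the size rule and 0 were lower, of 8 past the floor, while 10.7% of the 13388 genes past the floor were higher and 4.23% lower (15.0% in either direction). The median log2 ratio of the 8 was 1.36, against -0.0007 over all genes. With total counts in place of TMM the median of all genes moved to 0.19, and the same 5 genes were higher. The sum of the 9 genes was 966 CPM in knockdown OGD and 491 CPM in control OGD cells, and Egr1 and Srf together made up 80.1% of these reads in knockdown OGD and 86.7% in control OGD cells.

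Egr1 (ENSMUSG00000038418, chromosome 18, 34859823 to 34864984, plus strand on GRCm38, the files' mm10 build) is the most widely used early marker of the family. It stood at 502 CPM in knockdown OGD (492 to 512), 192 CPM in control OGD, 74.5 CPM in knockdown normal and 111 CPM in control normal cells. Knockdown OGD was the highest library by a 2.61-fold margin over control OGD (2.51 to 2.72). By OGD, Egr1 was 6.73-fold higher in knockdown cells (6.39 to 7.10) and 1.73-fold higher in control cells (1.64 to 1.83), the second of which did not reach 2-fold. In normal culture knockdown cells held 1.49-fold less than control cells (1.39 to 1.59). On the deposited FPKM scale, which is per length, Egr1 was the highest of the 9 genes in knockdown OGD cells at 149 FPKM, where Srf stood at 71.8 FPKM. In the other 3 libraries Srf was the highest and Egr1 second.

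Egr2 (ENSMUSG00000037868, chromosome 10, 67535475 to 67542188, plus strand), known for its role in myelinating Schwann cells and in T cells as well as in early responses, had few reads. It held 160 reads in knockdown OGD, 16 in control OGD, 23 in knockdown normal and 33 in control normal cells. A single library was high: knockdown OGD stood 7.86-fold above control OGD (4.69 to 14.1) and 7.63-fold above knockdown normal (4.91 to 12.4). Among the other libraries the intervals included equal levels, at 0.357 to 1.12 for knockdown over control in normal culture and 0.318 to 1.16 for OGD over normal culture in control cells. At 3.50 FPKM in knockdown OGD, Egr2 was a low transcript beside Egr1.

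Egr3 (ENSMUSG00000033730, chromosome 14, 70077203 to 70082614, plus strand), a family member known in neurons as a target of activity, followed another course. It held 83 reads in knockdown OGD, 15 in control OGD, 0 in knockdown normal and 593 in control normal cells. Control normal was the highest library, 7.13-fold above knockdown OGD. In normal culture Egr3 was at least 217-fold lower in knockdown cells, a bound computed against 3 reads in that library, and under OGD it was 4.35-fold higher in them (2.49 to 8.11). By OGD it was 31.0-fold lower in control cells (18.7 to 55.8) and at least 30.4-fold higher in knockdown cells, computed against 3 reads. The 3 Egr genes thus had highest libraries that were not the same, Egr1 and Egr2 in knockdown OGD and Egr3 in control normal cells.

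Nr4a1 (ENSMUSG00000023034, chromosome 15, 101254269 to 101274795, plus strand), the receptor also called Nur77, stood apart from Nr4a2 and Nr4a3. Its level was 109 CPM in knockdown OGD (104 to 114), 42.6 CPM in control OGD, 7.82 CPM in knockdown normal and 6.53 CPM in control normal cells. Both OGD libraries lay above both normal libraries. OGD went with a 13.9-fold higher level in knockdown cells (11.9 to 16.4) and a 6.53-fold higher level in control cells (5.40 to 7.96), the only member past the size rule on the higher side in control cells. Knockdown went with a 2.55-fold higher level under OGD (2.34 to 2.79). In normal culture the ratio was 1.20-fold, with an interval of 0.946 to 1.52 that includes equal levels.

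Nr4a2 (ENSMUSG00000026826, chromosome 2, 57106830 to 57124003, minus strand), known as Nurr1 and needed for midbrain dopamine neurons, held 37 reads in knockdown OGD, 33 in control OGD, 31 in knockdown normal and 114 in control normal cells. Nr4a3 (ENSMUSG00000028341, chromosome 4, 48045153 to 48086447, plus strand), known as NOR1, held 39, 25, 41 and 123 reads in the same order. In both genes control normal was the single high library and the other 3 lay together. In normal culture knockdown cells held 4.03-fold less Nr4a2 (2.69 to 6.20) and 3.29-fold less Nr4a3 (2.29 to 4.80). Under OGD the knockdown ratio was 0.881-fold for Nr4a2 (0.536 to 1.45) and 1.23-fold for Nr4a3 (0.723 to 2.11), and on the log2 scale Nr4a2 was -0.15, but 0.02 with total counts and 0.05 with FPKM. In control cells OGD went with 2.71-fold less Nr4a2 (1.83 to 4.12) and 3.86-fold less Nr4a3 (2.50 to 6.20). After subtraction of each gene's mean, the log2 levels of these 2 genes differed by at most 0.35 in any library, the closest pair among the 8 genes with at least 100 reads. Nr4a1 differed from them by up to 2.79 and 2.86. Such closeness was not particular to the pair. Among 10786 other named genes with at least 100 reads, 167 lay within 0.5 of Nr4a2 and 192 within 0.5 of Nr4a3.

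Arc (ENSMUSG00000022602, chromosome 15, 74669083 to 74672570, minus strand) was high in a pair of libraries that share neither lentivirus nor culture. It stood at 66.9 CPM in knockdown OGD (63.3 to 70.6), 17.0 CPM in control OGD, 7.54 CPM in knockdown normal and 67.9 CPM in control normal cells. In normal culture it was 9.0-fold lower in knockdown cells (7.64 to 10.7), and under OGD 3.94-fold higher in them (3.45 to 4.52). By OGD it was 8.86-fold higher in knockdown cells (7.52 to 10.5) and 4.00-fold lower in control cells (3.50 to 4.59). On the FPKM scale it was the fourth gene of the 9 in every library, from 24.2 FPKM in knockdown OGD cells and 25.2 FPKM in control normal cells to 2.73 FPKM in knockdown normal cells.

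Npas4 (ENSMUSG00000045903, chromosome 19, 4984355 to 4990316, minus strand) was at the edge of detection. It held 8 reads in knockdown OGD, 0 in control OGD, 0 in knockdown normal and 10 in control normal cells, and so passed the 20-read floor in none of the 4 comparisons. The libraries with reads are the same pair in which Arc was high. Its level in knockdown OGD was 0.409 CPM (0.176 to 0.805), and the count of 0 in control OGD allows up to 0.24 CPM by its Poisson interval, so these overlap. In knockdown normal the interval reached 0.172 CPM, below that of control normal (0.51 CPM, 0.245 to 0.938).

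Srf (ENSMUSG00000015605, chromosome 17, 46548329 to 46556175, minus strand) varied least of the 8 genes past the floor. It stood at 271 CPM in knockdown OGD, 234 CPM in control OGD, 107 CPM in knockdown normal and 135 CPM in control normal cells. Both OGD libraries lay above both normal ones. OGD went with a 2.53-fold higher level in knockdown cells (2.40 to 2.65) and a 1.73-fold higher level in control cells (1.65 to 1.82), of which the first passed the size rule. The knockdown ratio was 1.16-fold under OGD (1.11 to 1.21), and knockdown cells held 1.25-fold less in normal culture (1.19 to 1.33). The noncoding gene Gm26904 overlaps Srf on the opposite strand and held at most 21 reads in a library, against at least 2309 for Srf. Whether the counting used strand is not known here.

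**Figure D2:**
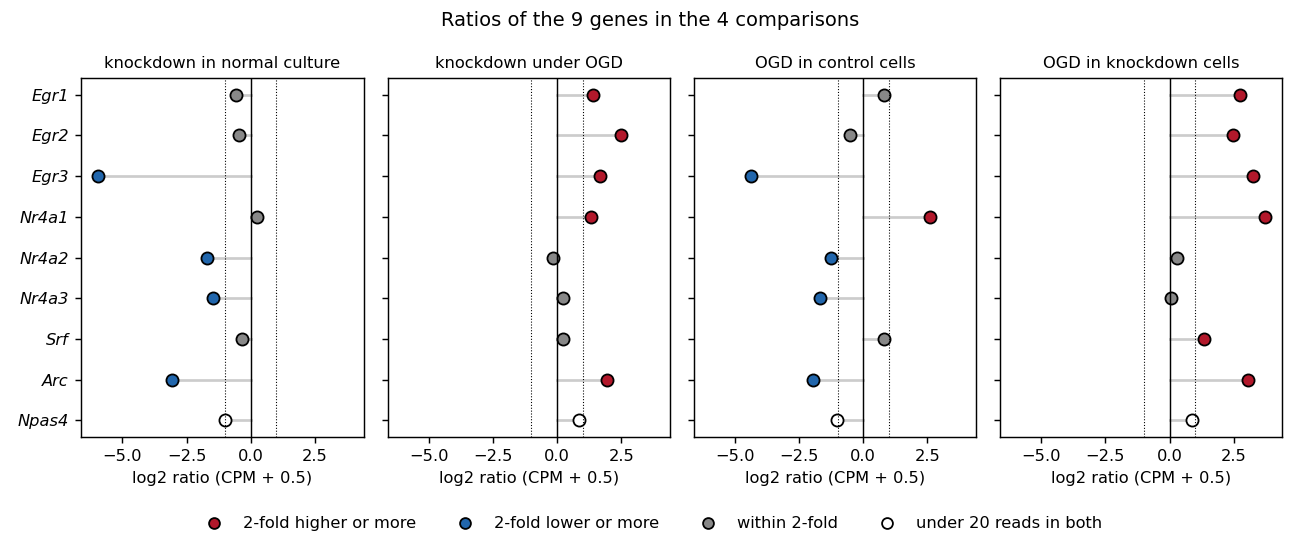
Log2 ratio of CPM + 0.5 (x axis) for each of the 9 genes (y axis) in the 4 comparisons, with dotted lines at 2-fold and colour for the size rule. All 8 genes past the floor lie above 0 for OGD in knockdown cells, and 4 lie past 2-fold on the lower side both for knockdown in normal culture and for OGD in control cells, comparisons that share the control normal library.

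In normal culture 4 of the 8 genes past the floor were lower with knockdown, Egr3, Nr4a2, Nr4a3 and Arc, and 0 were higher, against 16.3% lower and 6.25% higher among 14554 genes (22.6% in either direction). Egr1, Egr2, Nr4a1 and Srf stayed within 2-fold, between -0.57 and 0.24 on the log2 scale. The median of the 8 was -1.03, and that of all genes -0.03. The 4 lower genes were the same 4 that were lower by OGD in control cells, and both comparisons are set against the control normal library, so the 2 counts are not independent.

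By OGD in control cells 1 gene was higher, Nr4a1, and 4 were lower, while 9.36% of 14101 genes were higher and 22.2% lower (31.5% in either direction). The median of the 8 genes past the floor was -0.88, against -0.11 over all genes. By OGD in knockdown cells 6 were higher and 0 lower, Nr4a2 and Nr4a3 staying within 2-fold, against 19.1% higher and 16.9% lower of 14071 genes (35.9% in either direction). Their median was 2.60, against -0.002 over all genes. These comparisons use different libraries on both sides, but each shares a library with a knockdown comparison. The OGD ratio was higher in knockdown than in control cells in each of the 8 genes past the floor, by 0.54 for Srf, 1.10 for Nr4a1, 1.95 for Egr1 and up to 7.63 for Egr3 on the log2 scale. With 1 library per group this difference was not tested, and the share of all genes with such a difference was not computed.

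Arc and Egr3 were the members that followed the brain-type pattern, that is at least 2-fold lower with knockdown in normal culture and at least 2-fold higher with it under OGD. The pattern held for 4.87% of 12856 genes past the floor in both comparisons. Since the split is made on these ratios, it is a description. Just inside it lay Egr3 under OGD, at 1.68. Just outside lay Egr2 and Egr1, at -0.47 and -0.57 in normal culture, and Nr4a3, which was lower in normal culture but stood at 0.23 under OGD. With a floor of 100 reads Egr3 dropped out through its 83 reads, leaving Arc.

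The 2 genes differed in how far the knockdown OGD library came back to the control normal level. Arc stood at 98.5% of it (91.2 to 106) and Egr3 at 14.0% (11 to 17.7). The other 624 brain-type genes had a median of 34.0%, with an interquartile range of 12.0% to 85.3%, and 130 of them stood at or above the control normal level. Arc lay above 78.8% of them and Egr3 above 27.6%. The summed neuron markers stood at 13.6% and the summed glial, vascular and immune markers at 36.4%. Nr4a1 stood at 1670%, Egr2 at 486%, Egr1 at 452% and Srf at 201%, while Nr4a2 and Nr4a3 stood at 32.5% and 31.8%. These libraries differ in both lentivirus and culture, and their comparison was chosen after the values were seen. The part of brain-type RNA in the levels of Arc and Egr3 was not tested.

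**Figure D3:**
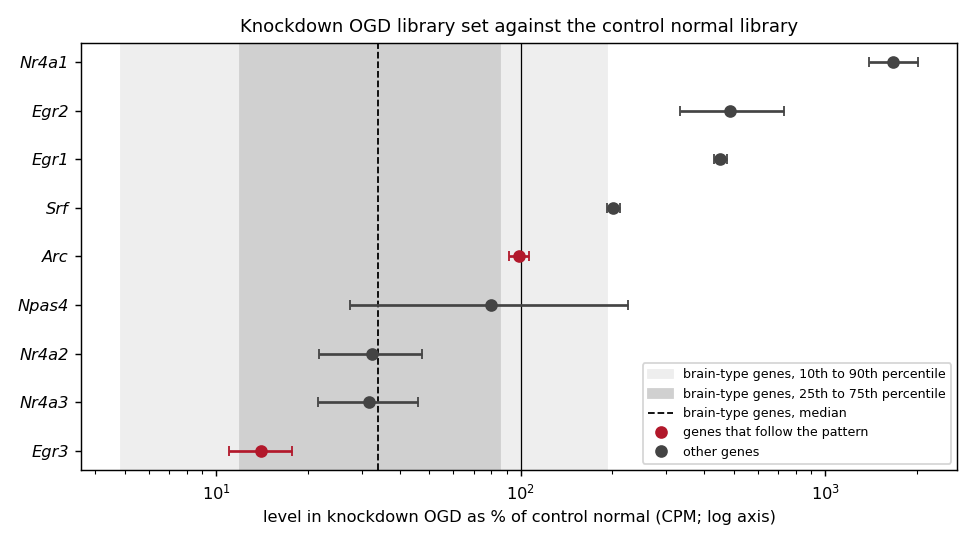
CPM in knockdown OGD cells as a percent of CPM in control normal cells (x axis, log scale) for each of the 9 genes (y axis), with 95% exact binomial intervals. Shaded bands and the dashed line give the percentiles and the median of 624 brain-type genes. Egr3 and Arc, in red, lie on either side of the median, and Egr1, Egr2, Nr4a1 and Srf lie to the right of 100%.

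Genes with the most similar profile were found by the largest difference, over the 4 libraries, of log2(CPM + 0.5) after subtraction of each gene's mean, among 10786 named genes with at least 100 reads. Nearest to Nr4a1 were Tiparp, an early-response ADP-ribosyltransferase gene (0.26), Selenbp1 (0.27) and Fos, the AP-1 subunit (0.30). Nearest to Egr1 were the lysosomal cystine transporter gene Ctns (0.24), Lca5 and Lyst. Egr3 was nearest to Camkv, a synaptic kinase-like protein gene (0.24), the synaptic pentraxin gene Nptx1 (0.27) and Tspoap1. Arc was nearest to the septin gene Sept3 (0.10), the neuroendocrine chaperone gene Scg5 and the calcium sensor gene Ncald. Nr4a2 was nearest to Sprtn (0.07), Nr4a3 to Hivep1 (0.08) and Srf to Naglu (0.04). Egr2 was nearest to Cep72 (0.38), the neuron marker gene Map2 (0.40) and Ldhb (0.40). Srf had 1744 genes within 0.5 and Egr2 had 6, so the profile of Srf was a common one.

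Other immediate early genes, a list of 32 that holds none of the 9, were counted in the same way. By OGD 18 were higher and 1 lower in knockdown cells (median 1.30), and 16 higher and 1 lower in control cells (median 1.01). Among all genes 19.1% were higher by OGD in knockdown cells and 9.36% in control cells. Highest in knockdown cells were Fosb, an AP-1 subunit (490 against 4 reads), and Tiparp (4.13), and highest in control cells were Maff, a small Maf factor (3.70), and Atf3 (3.19). With knockdown under OGD 7 were higher and 0 lower, led by Btg2, an antiproliferative gene (2.02), and the mRNA-decay factor gene Zfp36 (1.70), with a median of 0.48. With total counts 12 were higher and the median was 0.68, while with TMM 10.7% of all genes were higher. In normal culture 3 were lower with knockdown and 0 higher, namely Fosb (-2.59), Klf2 (-1.40) and Dusp1 (-1.18, named after its value was seen), with a median of 0.13. Of all genes 16.3% were lower there, a larger share than in the list. Fosb was the list's lowest gene with knockdown in normal culture and, at 490 reads in knockdown OGD against 123 in control OGD cells, higher with it under OGD, so it met the brain-type rule, yet it stood at 691% of the control normal level. Its level in control OGD cells, 8.0 CPM, also lay above the 3.62 CPM of control normal cells.

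**Figure D4:**
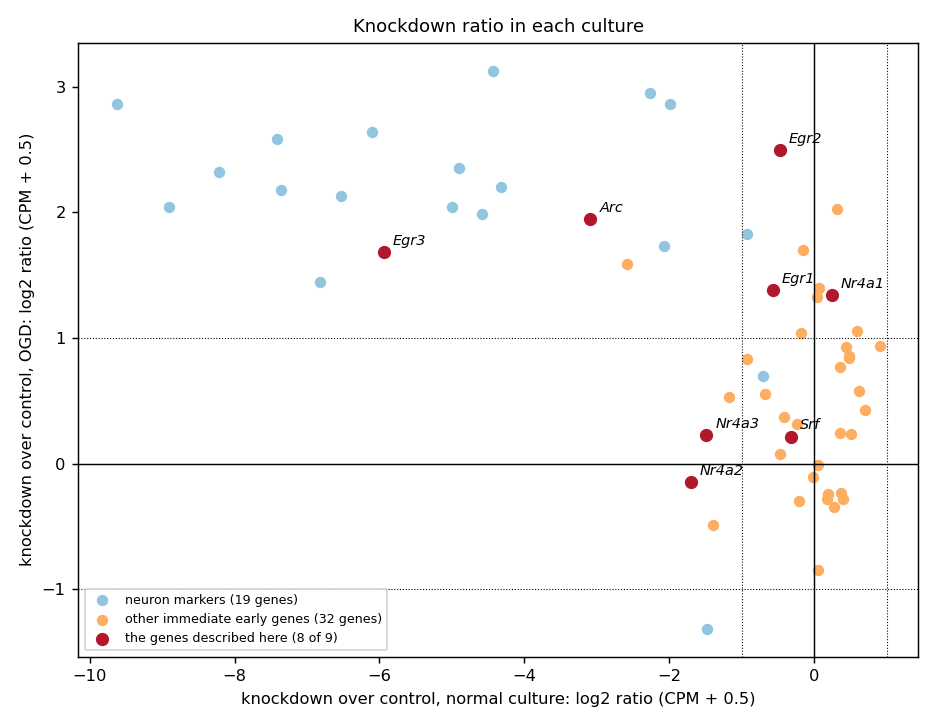
Knockdown over control log2 ratio of CPM + 0.5 in normal culture (x axis) and under OGD (y axis) for 8 of the 9 genes, 32 other immediate early genes and 19 neuron markers, with dotted lines at 2-fold. Arc and Egr3 lie in the upper left among the neuron markers, and Egr1, Egr2 and Nr4a1 lie in the upper middle with Btg2, Zfp36 and the neuron marker Map2.

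Close partners of the Egr and Nr4a factors were listed separately. Egr4, the remaining Egr gene, held 10 reads in knockdown OGD, 7 in control OGD, 0 in knockdown normal and 978 in control normal cells, 1.02% of the control normal level in knockdown OGD (0.489 to 1.89), which is lower than for Egr3. Nab2, a corepressor of Egr factors that is itself induced with them, stood at 99.9, 147, 47.7 and 70.4 CPM in the same order. It was higher by OGD in knockdown (1.06) and control cells (1.06), but within 2-fold in both on the FPKM scale and in control cells with total counts, and its knockdown ratio under OGD was -0.55, while that of Egr1 was 1.38. Nab1, the related corepressor, stayed within 2-fold in all 4 comparisons. Of the dimer partners Rxra, Rxrb, Rxrg, Arnt and Arnt2, 4 passed the floor, and Arnt, a shared bHLH-PAS subunit, was higher by OGD in knockdown (1.82) and control cells (1.70).

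Cofactors and targets of SRF were counted separately. Of 5 cofactors measured, 3 were lower by OGD in knockdown cells, the ternary complex factor gene Elk3 (-1.67) and the myocardin-related factor genes Mkl1 (-1.20) and Mkl2 (-1.12), and 2 in control cells, Elk3 (-1.43) and Mkl1 (-1.15). Among all genes 16.9% were lower by OGD in knockdown cells and 22.2% in control cells. In normal culture Mkl2 was higher with knockdown (1.19), but within 2-fold on the FPKM scale, while 6.25% of all genes were higher. Of 18 cytoskeletal and matricellular targets, 4 were higher and 0 lower by OGD in knockdown cells (median 0.49), a higher share near the 19.1% of all genes. By OGD in control cells 4 were higher and 0 lower (median 0.66), but 1 was higher under total counts, against 9.36% of all genes. Actg1, a cytoplasmic actin gene, stood at 1.69 in knockdown and 1.51 in control cells. With knockdown under OGD 1 was higher, the matricellular gene Cyr61 (1.25), and 2 were lower, Tagln (-1.23) and Cnn1 (-1.02, 17 against 35 reads), with a median of -0.26. With total counts 2 were higher and 1 lower. With TMM 10.7% of all genes were higher and 4.23% lower. In normal culture none of the 17 targets past the floor reached 2-fold with knockdown (median -0.14), against 22.6% of all genes.

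A further list held 13 genes tied to neuronal activity, called late-response genes here. With knockdown in normal culture 4 of 10 past the floor were lower and 0 higher, the neuropeptide precursor gene Vgf (61 against 2887 reads), the pentraxin gene Nptx2 (0 against 174 reads), the synaptic scaffold gene Homer1 (-1.38) and the neurotrophin gene Bdnf (-1.06), the last 2 named after their values were seen (median -0.47). Of all genes 16.3% were lower. By OGD 6 of 11 were higher in knockdown cells, led by Ptgs2, the inducible cyclooxygenase (2.69), and the granin gene Scg2 (2.29), with a median of 1.20. In control cells 3 of 10 were higher and 3 lower, led on the higher side by Ptgs2 (2.88), with a median of 0.47. By OGD 19.1% of all genes were higher in knockdown cells, and in control cells 9.36% were higher and 22.2% lower. With knockdown under OGD 2 of 11 were higher, Syt4 (30 against 0 reads) and Scg2 (56 against 10 reads), and 0 with a floor of 100 reads (median 0.19). Of all genes 10.7% were higher. Vgf held 55 reads in knockdown OGD against 37 in control OGD cells, so it did not come back as Arc did.

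Signalling genes upstream of the 9 were listed too. Of the calcium, CREB and MEF2 list, 9 of 23 were lower and 0 higher with knockdown in normal culture, with the NMDA receptor gene Grin1 (1 against 3161 reads) and the kinase gene Camk2a (-3.66) lowest (median -0.73), and 5 were lower with a floor of 100 reads. With knockdown under OGD 6 of 22 were higher and 0 lower (3 higher with a floor of 100 reads), led by Camk2a (3.17) and the factor gene Mef2c (2.28), with a median of 0.14. By OGD 6 of 22 were higher in knockdown cells (median 0.50, and 3 higher with a floor of 100 reads), and 9 of 23 were lower in control cells (median -0.55). The matching OGD shares of all genes were 19.1% higher (knockdown cells) and 22.2% lower (control cells). For knockdown they were 16.3% lower (normal culture) and 10.7% higher (OGD). The CREB gene Creb1 had a knockdown ratio of 0.41 under OGD and 0.64 in normal culture. In the ERK cascade 1 of 18 was higher and 0 lower with knockdown under OGD, the feedback inhibitor gene Spry2 (1.31). The list's median there was -0.06, and 0.14 with total counts, while 10.7% of all genes were higher and 4.23% lower. In normal culture Spry4, Spry2 and Braf were lower with knockdown (-1.78, -1.06 and -1.01, the last named after its value was seen). None were higher there (median -0.07), and 0 were lower with 2 CPM added. The lower share of the list is near the 16.3% of all genes. By OGD 4 were higher and 1 lower in knockdown cells, with Spry2 highest (2.30) and Hras lowest (-1.20), with a median of 0.31. The higher share is near the 19.1% of all genes, and 1 was higher with 2 CPM added. In control cells none reached 2-fold (median -0.09), against 31.5% of all genes.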

How the data were processed

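Per the labels' protocols, total RNA of HT22 cells was isolated with TRIzol, fragmented, turned into cDNA in which a strand carried deoxy-UTP, and amplified by PCR. Per the submitters' processing notes, TopHat2 and mm10 were used. Counting program, annotation and strand setting: not given in the sources used here. Per the file headers, the authors deposited 4 pairwise tables with a size-factor scaled mean count, a signal per library. Columns headed by sample number were read as FPKM, a unit inferred from the deposited values. Value columns that match no sample numbered 0.

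The deposited signal was turned back into whole reads, which fitted 100% of values within 1e-06 of a read, with equal reads in every table of a library. Genes missing from all tables of a library got 0 reads. Of 20089 genes 19912 matched GENCODE mouse release 21 (GRCm38) and 177 stayed unmatched. In R 4.3.3, edgeR 4.0.16 gave the TMM factors and DESeq2 1.42.0 the median-of-ratios factors. Ratios, intervals and plots used Python 3.11.15, numpy 2.4.6, pandas 2.3.3, scipy 1.17.1 and matplotlib 3.10.9. Groups of 1 library allow no count test on the recovered reads, and the authors' deposited fold changes and p-values were not used. Reads carry no molecular identifiers, so intervals and bounds, which use 3 reads against 0, cover counting error only. On simulated data the size rule was checked first, with Poisson counts, no variation between cultures and changes set only in genes with ample reads. That check therefore says nothing about variation between cultures or about genes with few reads.

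The 9 genes and all lists were chosen with earlier results of these data known. Named genes were the 9, at most the 2 highest and 2 lowest of a list in a comparison, and the 3 nearest genes of each member with at least 100 reads, leaving out clone, predicted and small-RNA names. Outside this rule Braf, Dusp1, Homer1, Bdnf, Nefh and Olig2 were named after their values were seen. Alternatives were total counts, median-of-ratios factors, an added 0.1 or 2 CPM, and no floor or one of 100 reads. Library sizes without ribosomal RNA repeat genes and Lars2, and the FPKM ratio, were the others.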

Additional observations from a re-analysis of the deposited data

Results flagged for a closer look

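Egr3 and Arc moved in opposite directions in the 2 cultures. The log2 ratio of Egr3 with knockdown was 1.68 under OGD and -5.94 in normal culture, and with OGD it was 3.24 in knockdown cells and -4.38 in control cells. That of Arc with knockdown was 1.95 under OGD and -3.09 in normal culture, and with OGD it was 3.07 in knockdown cells and -1.97 in control cells. With 1 library per group these differences were not tested. The neuron markers moved the same way, 18 of 20 higher and 1 lower with knockdown under OGD (median 2.15, and 9 higher with a floor of 100 reads), and 17 of 19 lower and 0 higher with it in normal culture (median -4.90). Of the glial, vascular and immune markers 8 of 10 were higher under OGD (5 with a floor of 100 reads or 2 CPM added, 13 with no floor) and 9 of 11 lower in normal culture. Among all genes 10.7% were higher with knockdown under OGD and 16.3% lower with it in normal culture. The part of these markers in the values of Egr3 and Arc was not tested.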

How the results depend on the processing

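Of 72 counts of members recomputed under the 8 alternatives, 71 stayed within 1.5 times the reported count. The exception was the number of members that follow the brain-type pattern, 1 with a floor of 100 reads, since Egr3 held 83 reads under OGD. Of 216 member ratios 50 moved beyond their counting interval, and none past the size rule changed sign. Nr4a2 with knockdown under OGD, within 2-fold, changed sign with total counts and with FPKM. Nr4a2 by OGD in control cells came within 2-fold with 2 CPM added (-0.91). Nr4a3 with knockdown in normal culture ranged from -2.25 with FPKM to -1.08 with 2 CPM added. Of 640 list counts 45 moved by more than 1.5 times. Leaving out a library would empty its group and was not done. No paired analysis was possible because each group holds 1 library. Depth limits the members with under 20 reads in a library, which are Npas4, Egr2 and Egr3, and with a floor of 100 reads Egr3 was no longer counted as higher, with knockdown under OGD or by OGD in knockdown cells.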

Other observations

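Reads and deposited FPKM gave unlike folds for Nr4a3. It held 66.1, 78.1 and 97.6 reads per FPKM in knockdown OGD, control OGD and knockdown normal cells, against 31.8 in control normal cells. For Egr1 the same quantity was 65.9, 59.4, 71.8 and 65.8 in that order, and for Arc it was 54.2, 49.0, 59.3 and 52.9. The FPKM of Nr4a3 was 0.42 in knockdown normal and 3.87 in control normal cells.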
